A study of Mus musculus with 14 samples.

Results

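The genes described here are 9 that carry calcium and electrical signals in heart muscle cells: Ryr2, Casq2, Pln, Atp2a2, Slc8a1, Cacna1c, Cacna1h, Hcn4 and Gja5. They were chosen by name, with earlier results of these data known. All 9 were found by Ensembl identifier among the 36047 genes listed in both deposited tables. RNA of mouse embryoid bodies, selected for poly(A) tails and sequenced in pairs of reads, gave the levels; embryoid bodies are aggregates of differentiating embryonic stem cells. The groups were Foxk1 KO embryoid bodies treated with IWR1 at day 10, Foxk1 KO embryoid bodies at days 3, 5 and 10, and control embryoid bodies of the iHA-Foxk1 line at days 3, 5 and 10, with 2 libraries in each of the 7 groups. Foxk1 encodes a forkhead transcription factor, and IWR1 is a small molecule that lowers canonical Wnt signalling by stabilising Axin. All were grown in suspension, by shaking, in a serum medium with transferrin, monothioglycerol and ascorbic acid that favours mesoderm. The control genotype is written iHAFoxk1 on days 3 and 5 and Control on day 10, and the part of Foxk1 deleted in KO is not stated. The labels give neither the dose nor the days of IWR1, and do not state whether the other day 10 groups received its solvent.

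In a heart muscle cell, depolarisation opens L-type calcium channels, and the calcium that enters opens release channels of the sarcoplasmic reticulum, the internal calcium store. A pump then returns calcium to the store and an exchanger moves it out of the cell, so that the cell relaxes. Pacemaker cells add a current carried by cyclic-nucleotide-gated channels and T-type calcium channels, and gap junctions pass the signal to the next cell. Several of these genes are not specific to heart: Atp2a2 encodes the pump of the endoplasmic reticulum in most cell types, and Gja5 is also a gene of arterial endothelium.

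By role, Ryr2 (chromosome 13, 11553102 to 12106945, minus strand) encodes the cardiac release channel and Casq2 (chromosome 3, 102086415 to 102146514, plus strand) calsequestrin, which binds calcium inside the store. Atp2a2 (chromosome 5, 122453513 to 122502225, minus strand) encodes the pump SERCA2, Pln (chromosome 10, 53337667 to 53345987, plus strand) its inhibitor phospholamban, and Slc8a1 (chromosome 17, 81373105 to 81738377, minus strand) the sodium-calcium exchanger NCX1. Cacna1c (chromosome 6, 118587240 to 119196418, minus strand) encodes the pore of the main cardiac L-type channel and Cacna1h (chromosome 17, 25374285 to 25433783, minus strand) that of a T-type channel. Hcn4 (chromosome 9, 58823412 to 58863175, plus strand) encodes the pacemaker channel of the sinoatrial node, and Gja5 (chromosome 3, 96904693 to 97077416, plus strand) connexin 40, a gap junction protein of atrium and conduction fibres. Positions are those of the mm10 build in the GENCODE vM21 annotation.

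The promoters of 4 genes called lower together in KO at day 10 are shown, each as the 250 bases before the RefSeq transcript start on build GRCm38.p6, 5′ to 3′ on the strand of the gene. Capitals mark matches, on either strand, to short core motifs of cardiac regulators. For the zinc finger factors Gata4 and Gata6 the letters searched were AGATAA and also TGATAA. For T-box factors such as Tbx5 the core was AGGTGT, and for NK2 homeobox factors such as Nkx2-5 it was AAGTG. The core of the Wnt effectors TCF and LEF was CTTTGA, and that of MEF2 factors is given by name alone. No match overlapped another. The windows lie at chr13:12106946-12107195 on the minus strand for Ryr2, chr10:53337436-53337685 on the plus strand for Pln, chr17:81738388-81738637 on the minus strand for Slc8a1 and chr9:58822699-58822948 on the plus strand for Hcn4.
Ryr2: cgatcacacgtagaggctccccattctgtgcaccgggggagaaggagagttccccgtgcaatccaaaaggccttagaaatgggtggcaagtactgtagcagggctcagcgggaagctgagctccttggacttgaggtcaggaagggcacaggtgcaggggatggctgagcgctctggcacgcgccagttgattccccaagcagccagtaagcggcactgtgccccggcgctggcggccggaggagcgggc
Pln: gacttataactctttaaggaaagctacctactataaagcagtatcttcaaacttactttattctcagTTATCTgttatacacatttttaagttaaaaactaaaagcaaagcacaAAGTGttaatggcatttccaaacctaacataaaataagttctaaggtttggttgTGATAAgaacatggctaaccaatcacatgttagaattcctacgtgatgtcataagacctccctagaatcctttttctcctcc
Slc8a1: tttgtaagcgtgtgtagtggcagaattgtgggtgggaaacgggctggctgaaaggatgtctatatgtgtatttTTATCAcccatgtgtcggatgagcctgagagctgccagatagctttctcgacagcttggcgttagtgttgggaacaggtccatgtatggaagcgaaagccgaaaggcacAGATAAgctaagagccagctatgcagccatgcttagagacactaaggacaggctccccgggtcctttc
Hcn4: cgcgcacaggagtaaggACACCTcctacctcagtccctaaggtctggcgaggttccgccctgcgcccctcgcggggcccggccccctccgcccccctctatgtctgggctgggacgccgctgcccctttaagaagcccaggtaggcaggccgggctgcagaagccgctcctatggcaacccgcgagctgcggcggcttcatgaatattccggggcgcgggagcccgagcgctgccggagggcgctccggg
The Pln window holds AGATAA on the opposite strand at 183 to 178 bases before the start, AAGTG at 136 to 132 and TGATAA at 82 to 77. In the Slc8a1 window TGATAA stands on the opposite strand at 177 to 172 bases before the start, and AGATAA on its own strand at 68 to 63. The Hcn4 window holds AGGTGT on the opposite strand at 233 to 228 bases before a start that lies upstream of the GENCODE gene start, and the Ryr2 window has no match to any of the 6 motifs. Such matches are common: of 32851 windows of the same length, 9.99% held AGATAA, 7.94% TGATAA, 11.8% AGGTGT, 40.7% AAGTG, 13.8% CTTTGA and 3.2% the MEF2 core. Base composition ranged widely among the 4, with 32.8% G and C in the Pln window, 50.4% in that of Slc8a1, 63.2% in that of Ryr2 and 71.2% in that of Hcn4, against a median of 52.4% over all windows. Among the 9 genes, 7 had an entry in the promoter table, with 9 windows in all, and the MEF2 core was found in 0 of the 9.

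Estimated counts totalled 10574194 to 11621032 in libraries of days 3 and 5, and 34466708 to 52747273 in those of day 10. Levels are given as CPM, the count scaled by the TMM-adjusted total of its library. The value of 3 counts lay between 0.254 and 0.298 CPM in the early table and between 0.0621 and 0.0827 CPM in the day 10 table. Fold changes are log2 values ± SE. A gene was called where its adjusted p was under 0.05, by the quasi-likelihood test of edgeR with Benjamini-Hochberg adjustment across the table. The 2 tables were normalized and tested separately. Separate cultures within a group are not stated in the labels, so the p-values reflect spread among these samples alone, and that spread may be technical. Each genotype is 1 line, so other differences between these lines and loss of Foxk1 cannot be told apart. Foxk1 itself was at 16.2 and 16.5 CPM in KO against 86.3 and 76.4 CPM in control at day 3, and on day 5 at 38.2 and 33.6 CPM in KO against 134 and 133 CPM in control. At day 10 it overlapped between the libraries labelled Foxk1 KO, at 71.3 and 41.8 CPM, and control, at 65.0 and 80.1 CPM, so directions at day 10 rest on the labels. In RNA from whole embryoid bodies, fewer cells of a type and less RNA per cell cannot be told apart.

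**Figure D1:**
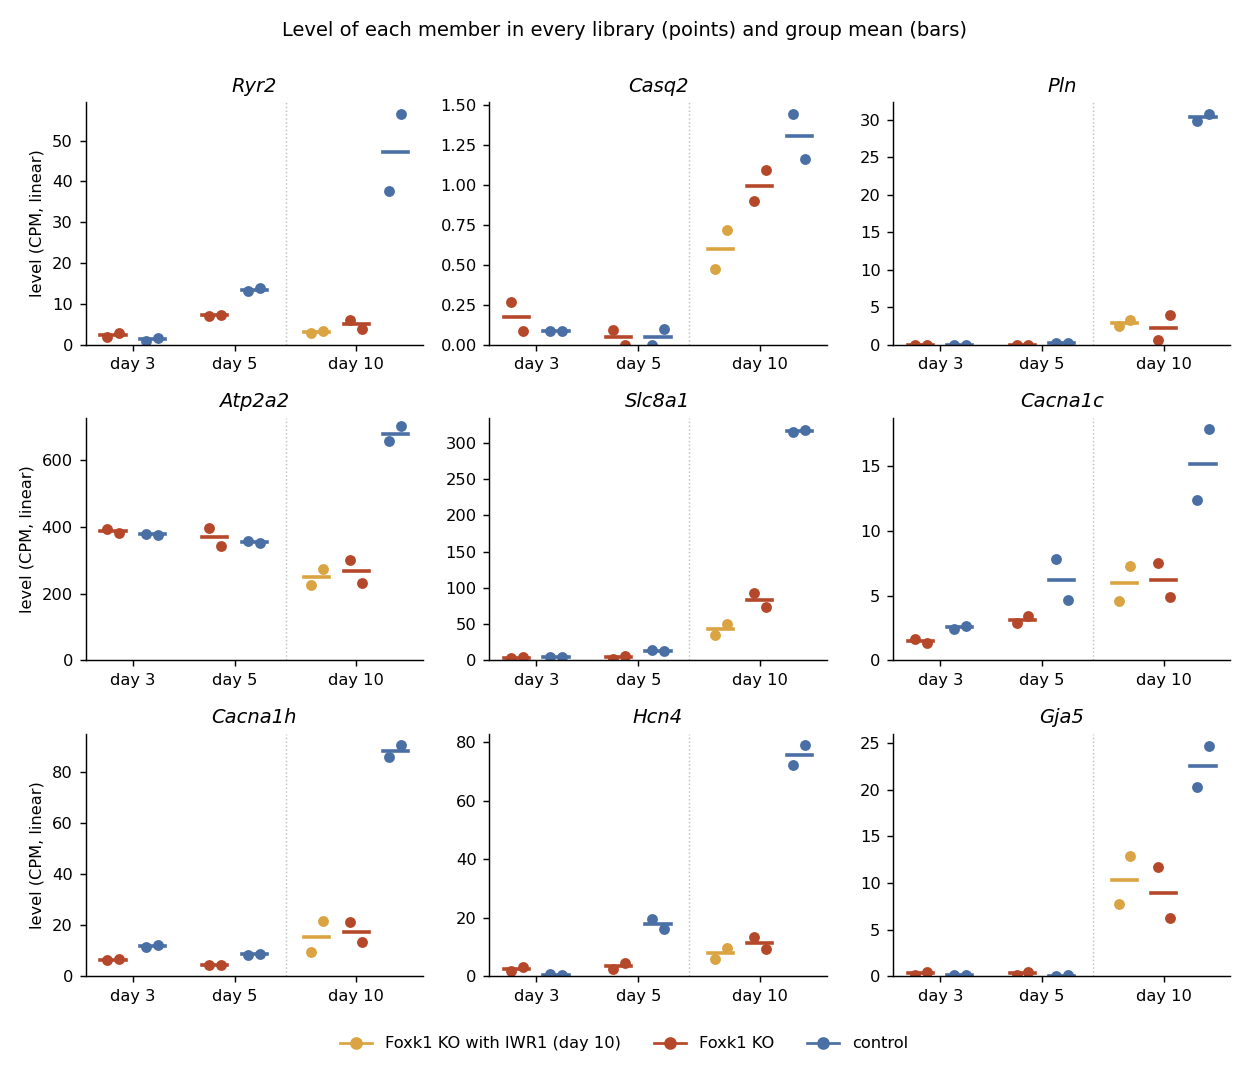
Level of each of the 9 genes in CPM (linear axis from 0) in every library, as points, with the group mean as a bar, for Foxk1 KO with IWR1, Foxk1 KO and control. The dotted line separates the 2 tables, which were normalized separately. At day 10 the control libraries stand above all KO and KO with IWR1 libraries for each of the 9 genes, while at days 3 and 5 Atp2a2 is the only one above 20 CPM in any library.

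At day 3 the KO and control libraries differed in both directions. Hcn4 was higher in KO and Cacna1h was lower. Of the 6 genes that passed the filter on low counts (Casq2, Pln and Gja5 did not), 2 were called, beside 32.9% of all 14430 genes tested; 2 of 6 is near that background.

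Hcn4 stood at 1.77 and 3.21 CPM in KO libraries, against 0.616 and 0.44 CPM in control libraries. Both KO libraries were above both control libraries, at 20 and 38 estimated counts in KO and 7 and 5 in control. The log2 fold change was 2.22 ± 0.50 (adjusted p = 0.00807). The value was 1.72 (adjusted p = 0.0714) without KO replicate 2 and 2.00 (adjusted p = 0.0732) without control replicate 2, so the call rested on each of these libraries. Cacna1h stood at 6.19 and 6.68 CPM in KO, against 11.3 and 12.2 CPM in control, again without overlap. Its log2 fold change was -0.86 ± 0.17 (adjusted p = 0.00433), and it was called in 10 of 10 alternative analyses.

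The release channel and the L-type channel were not called at this stage. Ryr2 was at 1.86 and 2.87 CPM in KO and 0.969 and 1.67 CPM in control (log2 fold change 0.84 ± 0.34, adjusted p = 0.0896). Cacna1c was at 1.68 and 1.35 CPM in KO and 2.46 and 2.64 CPM in control (-0.75 ± 0.37, adjusted p = 0.146). Neither pair of groups overlapped, but neither difference passed the test against the spread between libraries. Slc8a1 was at 3.01 and 4.65 CPM in KO and 4.84 and 4.4 CPM in control, and these overlapped (-0.27 ± 0.42, adjusted p = 0.665).

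Atp2a2 was by far the most abundant of the 9 per exon length at day 3. Its level was 392 and 383 CPM in KO and 378 and 376 CPM in control (0.04 ± 0.06, adjusted p = 0.679). The other 3 genes were close to the detection limit. Pln had 0 counts in all 4 libraries of day 3, Casq2 had 3 and 1 counts in KO and 1 and 1 in control, and Gja5 had 2 and 5 counts in KO and 2 and 2 in control. Cardiomyocyte markers summed to 22.8 and 22.1 CPM in KO and 29.5 and 30.5 CPM in control at this stage, with 1 of 13 tested called higher and 2 lower, and neuron markers to 239 and 234 CPM in KO and 184 and 175 CPM in control. Their part in the levels of Hcn4 and Cacna1h was not tested.

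By day 5 every call among these genes was in the same direction. Hcn4, Slc8a1, Cacna1c, Cacna1h and Ryr2 were all lower in KO, so that 5 of the 6 genes tested were called lower, beside 21.7% of all genes called lower and 43.5% called in either direction. For these 5 the KO and control libraries did not overlap, as was so, with KO lower, of 35.2% of all genes. The median log2 fold change of the 6 was -0.97, beside 0.01 over all genes tested.

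Hcn4 had the largest difference. It stood at 2.62 and 4.62 CPM in KO, against 19.7 and 16 CPM in control. Both KO libraries were far below both control libraries, and the log2 fold change was -2.30 ± 0.32 (adjusted p = 0.000444). Slc8a1, the exchanger, was at 2.26 and 6.2 CPM in KO, against 13.8 and 12.5 CPM in control. KO replicate 1 was the lower of a widely spaced KO pair, and the groups did not overlap (-1.63 ± 0.39, adjusted p = 0.0103). Its adjusted p was 0.0643 without control replicate 1 and 0.0565 in a fit of day 5 alone. The size of the difference turned on the KO pair, at -2.55 without KO replicate 2 and -1.09 without KO replicate 1.

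For the release channel the 2 KO libraries lay close together. Ryr2 was at 7.13 and 7.24 CPM in KO, against 13.2 and 13.8 CPM in control (-0.91 ± 0.24, adjusted p = 0.0141). Without control replicate 1 its adjusted p was 0.0712, without control replicate 2 it was 0.0854, and with DESeq2 it was 0.0664. Both calcium channel pores were lower too. Cacna1h was at 4.51 and 4.28 CPM in KO, against 8.42 and 8.64 CPM in control (-0.96 ± 0.18, adjusted p = 0.00259, called in 10 of 10 alternatives). Cacna1c was at 2.89 and 3.40 CPM in KO, against 7.83 and 4.67 CPM in control (-0.99 ± 0.32, adjusted p = 0.0306). Control replicate 1 carried much of that last difference, which was -0.57 (adjusted p = 0.269) without it, and the adjusted p was 0.149 with DESeq2 and 0.0871 in a fit of day 5 alone.

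The pump gene was not called. Atp2a2 was at 397 and 342 CPM in KO and 357 and 352 CPM in control, with the KO pair on either side of the control pair (0.06 ± 0.06, adjusted p = 0.475). The value turned on the KO pair: without KO replicate 2 it was called higher in KO, at 0.15 (adjusted p = 0.00713), and without KO replicate 1 it was -0.05 (adjusted p = 0.34). Pln had 0 counts in both KO libraries and 2 counts in each control library, Casq2 had 1 and 0 counts in KO and 0 and 1 in control, and Gja5 had 2 and 5 counts in KO and 0 and 1 in control. All were within a few counts of 0, and these 3 genes were not tested. Beside these differences, cardiomyocyte markers summed to 128 and 112 CPM in KO, against 219 and 205 CPM in control, with 4 of 13 called lower and 3 higher, and Myl2 at 0 in control. Pluripotent cell markers summed to 188 and 342 CPM in KO, against 51.6 and 53.3 CPM in control, with 5 of 6 called higher, and neuron markers to 89.0 and 104 CPM in KO, against 14.9 and 18.8 CPM in control, with 5 of 10 called higher. Visceral or hepatic endoderm markers summed to 35.7 and 63.0 CPM in KO, against 174 and 137 CPM in control, with 4 of 6 called lower. Smooth muscle markers summed to 493 and 188 CPM in KO, against 865 and 710 CPM in control, with 2 of 7 called higher and 2 lower. The part of these cell types in the differences of the 9 genes was not tested.

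**Figure D2:**
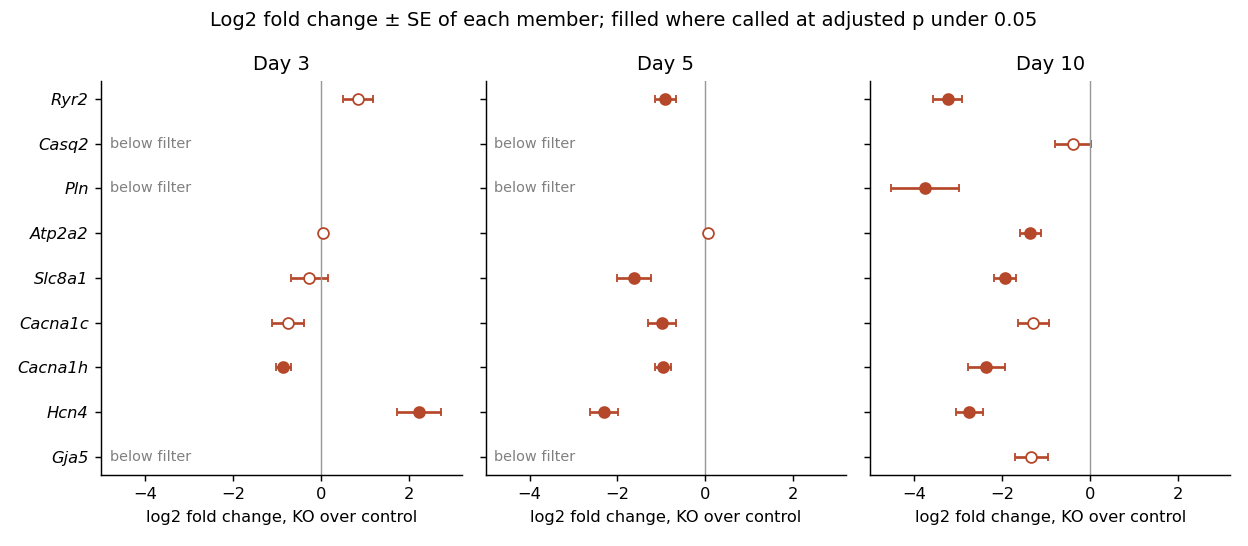
Log2 fold change of each gene, KO over control, with its SE as the error bar, at days 3, 5 and 10. Filled points were called at an adjusted p under 0.05, and genes below the filter on low counts are named as such. Hcn4 lies at 2.22 on day 3, at -2.30 on day 5 and at -2.74 on day 10, and on day 10 all 9 points lie below 0.

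From day 3 to day 5, Hcn4, Ryr2, Slc8a1 and Cacna1c rose in control, and Ryr2 and Cacna1c rose in KO. In control, 5 of 6 genes were called between day 5 and day 3, beside 60.8% of all genes, and 4 of them rose, beside 30.6% of all genes. Hcn4 reached 19.7 and 16 CPM at day 5, against 0.616 and 0.44 CPM at day 3 (5.05 ± 0.42 on the log2 scale, adjusted p = 8.66e-06), and Ryr2 reached 13.2 and 13.8 CPM, against 0.969 and 1.67 CPM (3.34 ± 0.30, adjusted p = 1.34e-05). Slc8a1 rose by 1.51 ± 0.39 (adjusted p = 0.00934) and Cacna1c by 1.29 ± 0.32 (adjusted p = 0.00667), while Cacna1h fell by 0.46 ± 0.17 on the log2 scale (adjusted p = 0.0392). The adjusted p for Slc8a1 was 0.057 without day 3 replicate 1, 0.0722 without day 3 replicate 2 and 0.0563 without day 5 replicate 1, and for Cacna1c it was 0.0813 without day 5 replicate 1. Cacna1h was not called without any 1 of the 4 control libraries (adjusted p = 0.0937 to 0.18), with DESeq2 (0.26), with no filter (0.0934) or with a replicate block (0.0549).

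In KO, 3 of 6 were called between day 5 and day 3, beside 53.8% of all genes. Of the 6, 2 were called higher, beside 28.3% of all genes, and both counts are near those backgrounds. Ryr2 rose by 1.60 ± 0.28 (adjusted p = 0.00115) and Cacna1c by 1.05 ± 0.36 (adjusted p = 0.0323), and Cacna1h fell by 0.55 ± 0.18 (adjusted p = 0.0307). With DESeq2 neither Cacna1c nor Cacna1h was called, and Cacna1h was also not called with no filter on low counts. Hcn4 was at 2.62 and 4.62 CPM at day 5 and 1.77 and 3.21 CPM at day 3 in KO, which overlapped (0.54 ± 0.36, adjusted p = 0.241), and Slc8a1 also overlapped (0.14 ± 0.42, adjusted p = 0.794). The count depended on single libraries: 6 of 6 were called without day 5 replicate 1, 2 without day 5 replicate 2, and 1 of 6 without either day 3 library or with DESeq2.

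Whether the difference between the lines changed from day 3 to day 5 was tested directly, as the day 5 difference of KO and control minus that of day 3. For Hcn4 the value was -4.51 ± 0.58 (adjusted p = 0.000604), and it was called in 13 of 13 alternatives. For Ryr2 it was -1.75 ± 0.42 (adjusted p = 0.0152), with adjusted p-values of 0.0906 without KO day 3 replicate 2, 0.074 without control day 3 replicate 1, 0.0522 without control day 5 replicate 1 and 0.0546 without control day 5 replicate 2. For Slc8a1 it was -1.36 ± 0.58 (adjusted p = 0.125), and -2.30 (adjusted p = 2.46e-05) without KO day 5 replicate 2. Cacna1c (-0.24 ± 0.49, adjusted p = 0.767), Cacna1h (-0.09 ± 0.25, adjusted p = 0.823) and Atp2a2 (0.02 ± 0.09, adjusted p = 0.893) were not called. The 2 of 6 called, both negative, stand beside 24.2% of all genes called in this test and 10.8% called negative.

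At day 10, genes of calcium release, calcium removal and pacemaking were lower together in KO. Ryr2, Pln, Hcn4, Cacna1h, Slc8a1 and Atp2a2 were called, 6 of 9 lower, beside 3.35% of all 17022 genes called lower and 5.27% called in either direction. All 9 had both KO libraries below both control libraries, which was so of 25.3% of all genes. The median log2 fold change of the 9 was -1.92, beside 0.02 over all genes. As the 9 were chosen with earlier results of these data known, these shares describe them and are no test of the set.

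Among the genes of the store, the release channel was far lower and calsequestrin was not called. Ryr2 stood at 6.09 and 3.94 CPM in KO, against 37.7 and 56.6 CPM in control. This was a 9.39-fold difference, -3.23 ± 0.33 on the log2 scale (adjusted p = 0.00847), and it was called without any 1 of the libraries (adjusted p up to 0.0386). Casq2 stood at 0.898 and 1.09 CPM in KO and 1.45 and 1.17 CPM in control, the lowest level per exon length of the 9 genes in control. Its difference was smaller than the spread allowed (-0.39 ± 0.41, adjusted p = 0.702).

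The pump, its inhibitor and the exchanger were all lower. Pln was at 0.558 and 3.96 CPM in KO, against 29.8 and 30.7 CPM in control (-3.75 ± 0.78, adjusted p = 0.0465). The KO pair differed widely, and the log2 fold change ranged from -5.75 without KO replicate 2 to -2.97 without KO replicate 1. Its adjusted p was 0.166 without control replicate 1 and 0.147 without control replicate 2, 0.161 with no filter on low counts and 0.0552 in a fit of the 4 libraries alone. Atp2a2 was at 302 and 231 CPM in KO, against 656 and 701 CPM in control, a 2.55-fold difference (-1.35 ± 0.24, adjusted p = 0.0298). The adjusted p of Atp2a2 was 0.139 without KO replicate 2, 0.179 without control replicate 1, 0.186 without control replicate 2 and 0.0736 with the replicate number as a block. Slc8a1 was at 92.7 and 74.3 CPM in KO, against 316 and 318 CPM in control (-1.92 ± 0.25, adjusted p = 0.0129). Leaving out control replicate 1 gave Slc8a1 an adjusted p of 0.0898, control replicate 2 one of 0.0711 and KO replicate 2 one of 0.0627.

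Of the channels of the cell surface, the pacemaker and T-type genes were called and the L-type gene was not. Hcn4 stood at 13.3 and 9.38 CPM in KO, against 72.4 and 78.9 CPM in control (-2.74 ± 0.31, adjusted p = 0.0105, and 0.0538 without control replicate 1). Cacna1h stood at 21.1 and 13.5 CPM in KO, against 85.7 and 90.5 CPM in control (-2.35 ± 0.42, adjusted p = 0.0307). For both genes the 2 KO libraries lay far below the 2 control libraries. The adjusted p of Cacna1h was 0.12 without KO replicate 2, 0.135 without control replicate 1 and 0.117 without control replicate 2. Cacna1c was at 7.54 and 4.92 CPM in KO and 12.4 and 17.9 CPM in control (-1.28 ± 0.36, adjusted p = 0.107). The gap junction gene Gja5 was at 11.7 and 6.23 CPM in KO and 20.3 and 24.7 CPM in control (-1.33 ± 0.38, adjusted p = 0.112). These last 2 genes were called by DESeq2, with adjusted p-values of 0.0119 for Cacna1c and 0.0102 for Gja5.

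Heart muscle markers were lower in the same libraries. The 16 cardiomyocyte marker genes summed to 176 and 421 CPM in KO, against 6584 and 5414 CPM in control, and 14 of the 16 were called lower, with a median log2 fold change of -5.30 and none at 0 in both libraries of a group. Relative to that sum the 9 genes differed. Atp2a2 amounted to 171% and 55.0% of the marker sum in KO, against 9.96% and 12.9% in control, and Slc8a1 to 52.6% and 17.6% in KO, against 4.79% and 5.88% in control. Pln amounted to 0.317% and 0.941% in KO, against 0.453% and 0.568% in control, so that its groups overlapped on this scale. Ryr2, at 3.45% and 0.935% in KO and 0.573% and 1.05% in control, overlapped too. The other 7 genes did not overlap and were higher in KO by this measure. The marker sum itself was far lower in KO, so any gene that fell less than that sum comes out higher on this scale. The share of all genes for which this is so was not computed. Markers of visceral or hepatic endoderm were also lower in KO, at sums of 1631 and 608 CPM against 4527 and 3969 CPM in control, with 2 of 7 called, and smooth muscle markers summed to 831 and 855 CPM in KO and 524 and 516 CPM in control, with 1 of 8 called lower. The part of these cell types in the levels of the 9 genes was not tested.

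In KO embryoid bodies given IWR1, Slc8a1 was lower than in untreated KO, and the other 8 genes were not called in either direction. Of the 9, 1 was called against untreated KO, beside 13.9% of all genes, and 8.08% called lower. The median log2 fold change of the 9 was -0.16, beside -0.01 over all genes. In 3 of the 9 the libraries did not overlap and were lower with IWR1, as in 30.2% of all genes. Both counts, 1 of 9 and 3 of 9, are near those backgrounds.

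Slc8a1 stood at 35.4 and 50.9 CPM in KO with IWR1, against 92.7 and 74.3 CPM in KO (-0.95 ± 0.24, adjusted p = 0.048). The call was lost with RLE size factors (adjusted p = 0.0504), with a replicate block (0.102) and in a fit of the 4 libraries alone (0.11), and without KO replicate 1 (0.177), KO replicate 2 (0.0724) or IWR1 replicate 1 (0.175). Ryr2 stood at 2.84 and 3.28 CPM with IWR1 and 6.09 and 3.94 CPM without it, also apart but not called (-0.72 ± 0.32, adjusted p = 0.166). Casq2 stood at 0.476 and 0.717 CPM with IWR1 and 0.898 and 1.09 CPM in KO (-0.74 ± 0.42, adjusted p = 0.257).

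The remaining 6 genes overlapped between treated and untreated KO. Pln was at 2.44 and 3.25 CPM with IWR1, inside the wide KO pair of 0.558 and 3.96 CPM (0.34 ± 0.74, adjusted p = 0.771). Without KO replicate 2 it was called higher with IWR1, at 2.34 (adjusted p = 0.0266), so that 1 library decided this value. Atp2a2 was at 224 and 272 CPM with IWR1 and 302 and 231 CPM in KO (-0.10 ± 0.23, adjusted p = 0.782). Hcn4 was at 5.98 and 9.70 CPM with IWR1 and 13.3 and 9.38 CPM in KO (-0.54 ± 0.30, adjusted p = 0.25). Cacna1h (9.59 and 21.4 CPM with IWR1), Cacna1c (4.55 and 7.33 CPM) and Gja5 (7.78 and 12.8 CPM) had log2 fold changes of -0.16 ± 0.40, -0.07 ± 0.36 and 0.20 ± 0.38 against KO, with adjusted p-values of 0.805, 0.903 and 0.735.

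Against control, 6 of the 9 genes were called lower in KO with IWR1, beside 6.13% of all genes called lower and 9.12% in either direction. This comparison shares its control libraries with that of KO and control, so the 2 are not independent. The log2 fold changes were -3.95 ± 0.34 for Ryr2 (adjusted p = 0.00457), -3.41 ± 0.77 for Pln (adjusted p = 0.0444), -3.27 ± 0.32 for Hcn4 (adjusted p = 0.00523) and -2.88 ± 0.26 for Slc8a1 (adjusted p = 0.00485). They were -2.51 ± 0.42 for Cacna1h (adjusted p = 0.02) and -1.45 ± 0.24 for Atp2a2 (adjusted p = 0.0187). All 9 genes had both treated libraries below both control libraries, as had 33.5% of all genes. Ryr2, Hcn4 and Slc8a1 were called without any 1 of the 4 libraries. Pln was not called without any 1 of them (adjusted p = 0.0755 to 0.18). Without control replicate 1, the adjusted p was 0.0733 for Cacna1h and 0.105 for Atp2a2, without control replicate 2 it was 0.0757 and 0.115, and without IWR1 replicate 1 it was 0.0884 for Atp2a2.

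Cell type markers differed between KO with IWR1 and untreated KO. The cardiomyocyte markers summed to 719 and 561 CPM with IWR1, against 176 and 421 CPM in KO, with 15 of 16 log2 fold changes above 0, 4 of them called, and a median of 1.84. Whether that differs from the 9 genes was not tested. Neuron markers summed to 363 and 462 CPM with IWR1, against 47.7 and 52.7 CPM in KO, and 9 of 10 were called higher. Endoderm markers summed to 81.4 and 165 CPM with IWR1, against 1631 and 608 CPM in KO. Of the 7, 5 were called lower and 1, Foxa2, higher (2.68 ± 0.34, adjusted p = 0.0112). The part of these cell types in the values of Slc8a1 and the others was not tested.

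**Figure D3:**
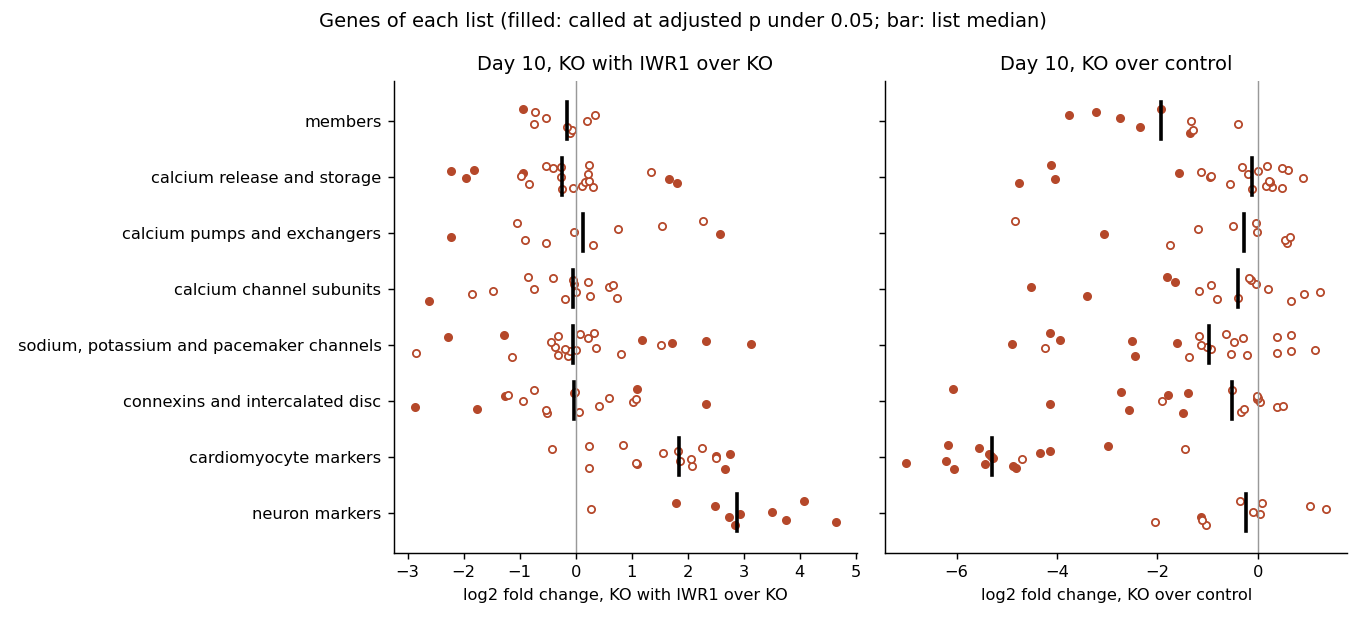
Log2 fold changes at day 10 of the 9 genes ("members") and of wider lists of related genes and cell type markers, for KO with IWR1 over KO (left) and KO over control (right). Each point is a gene, filled where called at an adjusted p under 0.05, and the bar is the median of the list. The cardiomyocyte markers have medians of 1.84 on the left and -5.30 on the right, where those of the 9 genes are -0.16 and -1.92.

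The order of levels per exon length was read within each group of day 10, in CPM per kb of exon. In KO with IWR1, Atp2a2 led at 47.0, Slc8a1, Cacna1h, Gja5, Hcn4 and Pln followed at 2.30 to 1.03 with each neighbour overlapping the next, and Ryr2 was last at 0.167. In KO, Atp2a2 led at 50.5, Slc8a1 followed at 4.44, and Ryr2 was again last at 0.274, below Casq2 at 0.388 without overlap. In control, Atp2a2 stood at 129, Slc8a1 at 16.9, Hcn4 at 12.4, Pln at 11, Cacna1h at 10.6, Gja5 at 3.92, Ryr2 at 2.58, Cacna1c at 0.995 and Casq2 at 0.509, and only Pln and Cacna1h overlapped among neighbours. The mean of Ryr2 thus stood above those of Cacna1c and Casq2 in control and below both in KO and in KO with IWR1, though in KO its libraries overlapped those of Cacna1c. Exon length here is that of all protein-coding transcripts of the gene together, so a gene that uses few of its exons would be set too low.

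**Figure D4:**
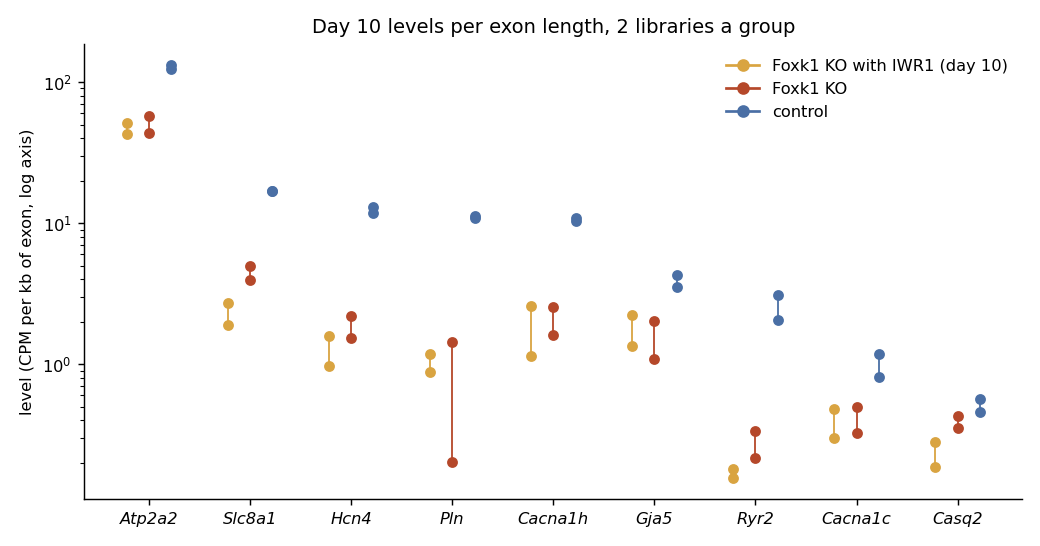
Level of each gene at day 10 in CPM per kb of exon (log axis) in the 2 libraries of Foxk1 KO with IWR1, Foxk1 KO and control, joined by a line and ordered by the control mean. Ryr2 has the lowest mean of the 9 in KO (0.274) and in KO with IWR1 (0.167), but not in control (2.58), and the 2 KO libraries of Pln lie furthest apart.

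Across the 6 libraries of day 10 the 9 genes varied together. The correlation of log2(CPM + 1) between 2 of them ran from 0.56 to 0.99 over 36 pairs, with a median of 0.90. Across the 8 libraries of days 3 and 5 the 6 genes tested gave values from -0.81 to 0.92 over 15 pairs, with a median of 0.12. These libraries share groups, so the values describe the group differences above and carry no test. Among protein-coding genes with a mean of at least 5 CPM, those most like Pln at day 10 were Myh6 (r = 0.994) and Tnnt2 (r = 0.988), a myosin and a troponin of heart muscle, and Hpgd (r = 0.985). Those most like Ryr2 were Chsy3, Gc and Serpina1b (r = 0.994 to 0.997). Serpina1a was most like Hcn4 (r = 0.997), and Serpinf2 was most like Slc8a1. Of the 9, only Pln had genes of the cardiomyocyte marker list among its 3 most like genes at day 10. At days 3 and 5 Sdc2 was most like Hcn4 (r = 0.996) and Gcdh most like Cacna1h (r = 0.995).

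Other genes of the same machinery were counted from lists of related genes. The list of pumps and exchangers also holds Ppp1r1a and Prkaca, which encode neither. The list of calcium channel subunits also holds Ahnak and Rrad, which do not encode channel subunits. At day 3 in KO, 8 of 19 genes of calcium release and storage were called higher and 3 lower. In the calcium channel subunit list 6 of 14 were higher and 0 lower. Among sodium, potassium and pacemaker channels 3 of 14 were higher and 2 lower, and among connexins and disc genes 2 of 14 were higher and 4 lower. Of all genes, 32.9% were called in either direction at day 3 and 43.5% at day 5. Cacna1g, a T-type pore related to Cacna1h, averaged 28.1 ± 4.29 CPM in KO and 8.41 ± 0.56 CPM in control (SD, n = 2 each). Its log2 fold change was 1.74 ± 0.16 (adjusted p = 4.71e-05), the opposite direction to Cacna1h. Kcnj3, a subunit of the acetylcholine-gated potassium channel, averaged 0.999 ± 0.338 CPM in KO and 44.3 ± 0.558 CPM in control (-5.46 ± 0.27, adjusted p = 6.99e-07).

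On day 5, 4 of 19 genes of calcium release and storage were lower and 6 higher in KO. In the calcium channel subunit list 4 of 14 were lower and 2, Rrad among them, higher. Of the sodium, potassium and pacemaker channel genes 3 of 14 were lower and 4 higher. Jph2, which holds the cell membrane close to the store, averaged 5.2 ± 0.314 CPM in KO and 26.7 ± 0.373 CPM in control (-2.36 ± 0.18, adjusted p = 1.14e-05). Cacna2d1, an auxiliary calcium channel subunit, had a log2 fold change of -1.64 ± 0.15 (adjusted p = 3.65e-05), and Kcnh2, a repolarising potassium channel, one of -2.36 ± 0.21 (adjusted p = 2.92e-05). Among connexins and intercalated disc genes 6 of 14 were lower and 4 higher. Gja1, which encodes the main ventricular connexin, was higher at 406 ± 9.10 CPM in KO, against 203 ± 6.44 CPM in control (1.00 ± 0.04, adjusted p = 4.44e-07). Popdc2, a cyclic-AMP-binding membrane protein of heart muscle, was lower (-5.10 ± 0.31, adjusted p = 2.88e-06).

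For KO against control at day 10, the genes called in these lists were all lower. There were 4 of 21 for calcium release and storage and 4 of 15 in the calcium channel subunit list, Rrad among these last 4. In the pump and exchanger list 1 of 10 was called, Ppp1r1a, so none of its pump and exchanger genes were. There were 6 of 22 for sodium, potassium and pacemaker channels and 7 of 17 for connexins and disc genes. List medians ran from -0.96 to -0.12, and 5.27% of all genes were called in either direction. Hrc, a calcium-binding protein of the store, averaged 3.08 ± 0.0958 CPM in KO and 50.7 ± 12.3 CPM in control (-4.04 ± 0.34, adjusted p = 0.00562), and Trdn, which anchors the release channel to calsequestrin, had a log2 fold change of -4.12 ± 0.52 (adjusted p = 0.0124). Cacna2d2, a calcium channel subunit, averaged 2.96 ± 1.30 CPM in KO and 67.9 ± 3.33 CPM in control (-4.52 ± 0.40, adjusted p = 0.00595). Cacna1d, an L-type pore of pacemaker cells, was lower (-3.41 ± 0.41, adjusted p = 0.0119), as was Kcnj5, a subunit of the acetylcholine-gated potassium channel (-3.93 ± 0.29, adjusted p = 0.00499). Of 17 conduction and pacemaker transcription factors 6 were lower, among them Nkx2-5 (-5.65 ± 0.40, adjusted p = 0.00443) and Tbx5 (-2.79 ± 0.24, adjusted p = 0.00562).

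With IWR1, the wider lists moved in both directions against untreated KO. Of all genes, 13.9% were called in either direction in this comparison. Genes called higher and lower numbered 2 and 4 of 21 for calcium release and storage. They numbered 4 and 2 of 22 for sodium, potassium and pacemaker channels and 2 and 3 of 17 for connexins and disc genes. In the pump and exchanger list they numbered 1 and 1 of 10, with Ppp1r1a higher and the pump gene Atp2b4 lower. In the calcium channel subunit list they numbered 0 and 1 of 15, and that 1 was Ahnak. Hrc was higher at 9.77 ± 3.29 CPM with IWR1, against 3.08 ± 0.0958 CPM in KO (1.67 ± 0.31, adjusted p = 0.0232), and so was Kcnj3 (2.32 ± 0.34, adjusted p = 0.0142). Itpr1, a release channel of many cell types, was lower at 27.2 ± 6.13 CPM with IWR1, against 106 ± 20.8 CPM in KO (-1.96 ± 0.28, adjusted p = 0.014), as was Dsp, a desmosome gene of disc and epithelium (-2.87 ± 0.37, adjusted p = 0.0117).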

How the data were processed

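Per the submitters' processing notes, kallisto 0.46.2 and the mm10 build were used. The deposited values are estimated counts per gene, given as whole numbers in the authors' 2 tables. The labels' protocols name a TruSeq RNA or stranded mRNA kit. Strand use in counting, the summing of transcripts to genes and the annotation behind it were not given in the sources used here, so genes that overlap on opposite strands cannot be told apart. The letters ND in control titles of days 3 and 5 are not interpreted.

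Each table was fitted with edgeR 4.0.16 in R 4.3.3 (filterByExpr, TMM, robust quasi-likelihood F-test, two-sided, group as the sole term, Benjamini-Hochberg over 14430 or 17022 genes, threshold 0.05). The fits had 4 and 3 residual degrees of freedom and common biological coefficients of variation of 0.0915 and 0.248. Fold changes are fitted values, and floors cover counting error only. The fit was tested on simulated counts.

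The 9 genes and the 13 wider lists were chosen with earlier results of these data known. Named genes are the 9, up to 4 per list and comparison with the smallest p, and for each of the 9 the 3 most correlated genes per table, of which a selection is printed. Alternatives were RLE size factors, DESeq2 1.42.0, other filters, a replicate block, fewer libraries and each library left out. Same-numbered libraries were checked for shared deviations and are not treated as pairs. Promoter windows came from RefSeq.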

Additional observations from a re-analysis of the deposited data

Results flagged for a closer look

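For a pair of genes the difference between KO and control changed between day 3 and day 5 by a test of that change itself. Hcn4, the pacemaker channel gene, was higher in KO at day 3 (2.22 ± 0.50 on the log2 scale) and lower in KO at day 5 (-2.30 ± 0.32), a change of -4.51 ± 0.58 (edgeR's quasi-likelihood test, adjusted p = 0.000604). Both KO libraries were above both control libraries at day 3 and below both at day 5. Ryr2, the release channel gene, had the same order of groups, with 0.84 ± 0.34 at day 3, which was not called, and -0.91 ± 0.24 at day 5, a change of -1.75 ± 0.42 (adjusted p = 0.0152). At day 3 the control libraries held 7 and 5 estimated counts of Hcn4 and 11 and 19 of Ryr2. Pluripotent cell markers summed to 188 and 342 CPM in KO and 51.6 and 53.3 CPM in control at day 5, and to 1424 and 1495 CPM in KO and 1385 and 1375 CPM in control at day 3. Their part in these changes was not tested.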

How the results depend on the processing

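The number of the 9 genes called moved as follows. For day 5 KO against control it was 5, and 3 with DESeq2 and in a fit of that day alone; for day 5 against day 3 in KO it was 3, and 1 with DESeq2. For IWR1 against KO it was 1, and 0 with RLE size factors, with a replicate block and with only the 4 libraries compared, where 1 gene (edgeR) had an unadjusted p under 0.05. Leaving out 1 library gave 1 to 2 for day 3 KO against control, 2 to 6 for day 5, 2 to 4 and 1 to 6 for day 5 against day 3 in control and KO, 1 to 3 for the change of the KO difference, 1 to 6 for day 10 KO against control, 0 to 1 for IWR1 against KO and 3 to 5 for IWR1 against control. At day 10 the count was 1 without control replicate 1, 2 without control replicate 2 and 3 without KO replicate 2.

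Same-numbered libraries had deviations that correlated at -0.0218 to 0.0501 at days 3 and 5, and at -0.322 (KO and IWR1), -0.297 (KO and control) and 0.242 (IWR1 and control) at day 10. With a replicate block, 5 of the 9 were called for day 10 KO against control and 6 for IWR1 against control. With the numbers of the day 10 KO libraries crossed in that block, an alternative chosen after seeing the data, 3 were called for IWR1 against KO, and 3257, 7268 and 7182 of all genes for KO against control, IWR1 against KO and IWR1 against control.

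Directions turned for differences near 0. The change of the KO difference of Atp2a2 was -0.00 with RLE size factors and -0.01 with no filter. Leaving out 1 library, values spanned 0 for Slc8a1 at day 3 (-0.62 to 0.01), Atp2a2 at day 5 (-0.05 to 0.15), Atp2a2 (-0.18 to 0.01) and Slc8a1 (-0.79 to 0.69) for day 5 against day 3 in KO, the change of the KO difference of Atp2a2 (-0.09 to 0.09) and Cacna1c (-0.56 to 0.18), and IWR1 against KO for Pln (-0.45 to 2.34), Atp2a2 (-0.28 to 0.13), Cacna1c (-0.45 to 0.30), Cacna1h (-0.85 to 0.31) and Gja5 (-0.20 to 0.75). The cause was not tested.

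Counts over all genes moved by more than 1.5 times in these cases. Day 3 KO against control gave 4741, and 3010 with DESeq2, 7334 in a fit of that day alone and 2520 to 2572 without 1 library. Day 5 gave 6281, and 4030 to 7565 without 1 library, and the change of the KO difference 3496, with 2313 by DESeq2 and 2049 to 5621 without 1 library. Day 10 KO against control gave 897, and 1981 with DESeq2, 1737 with no filter and 63 to 838 without 1 library. IWR1 against KO gave 2358, and 4229, 3697 and 548 to 3056 under the same settings, 1233 with a replicate block and 1001 with 4 libraries. IWR1 against control gave 1553, and 3402, 3093, 280 to 2145 and 948 with a replicate block.

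With 2 libraries a group, 1 line of each kind and Foxk1 not called lower at day 10, the p-values do not extend beyond these samples. Casq2, Pln and Gja5 at days 3 and 5 were limited by low counts. At day 10 Casq2 was tested on 23 to 62 estimated counts a library. Its SE for KO against control was 0.41 there, near the 0.42 of Cacna1h.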

Other observations

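Of the transcription factors of the conduction system and pacemaker, 8 of 14 tested were lower in KO at day 3 and 1 higher (edgeR, adjusted p under 0.05), beside 32.9% of all genes called in either direction. Their median log2 fold change was -2.27. Gata6, which specifies endoderm and heart mesoderm, averaged 0.477 ± 0.0764 CPM in KO and 58.2 ± 2.8 CPM in control (SD, n = 2 each; -6.90 ± 0.15, adjusted p = 3.55e-09). Gata4 averaged 2.69 ± 0.942 CPM in KO and 47.0 ± 2.55 CPM in control (-4.13 ± 0.17, adjusted p = 4.4e-07). At day 5, 8 of 14 were lower and 1 higher, beside 43.5% of all genes called, with a median of -0.74. Hand2, a factor of heart mesoderm, averaged 18.5 ± 1.62 CPM in KO and 96.6 ± 6.77 CPM in control (-2.38 ± 0.11, adjusted p = 1.6e-06). In KO with IWR1 against KO at day 10, 5 of 17 were higher and 4 lower, beside 13.9% of all genes called. Irx3, a factor of the ventricular conduction system and of neural tissue, averaged 26.8 ± 4.22 CPM with IWR1 and 5.49 ± 0.882 CPM in KO (2.29 ± 0.25, adjusted p = 0.00807), and Tbx20 was lower (-2.41 ± 0.31, adjusted p = 0.0114).

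In the pump and exchanger list, 2 of 10 genes were higher and 0 lower in KO at day 3, beside 32.9% of all genes called. The 2 were the pump gene Atp2b4 and Ppp1r1a, which encodes neither a pump nor an exchanger. On day 5, 2 of the same 10 genes were higher and 3 lower, beside 43.5% of all genes called. Prkaca, also neither a pump nor an exchanger gene, was among the 3 lower. Skeletal muscle markers summed to 5.63 and 6.48 CPM in KO with IWR1, 19.1 and 25.1 CPM in KO and 9.10 and 6.83 CPM in control at day 10, with Myf6 at 0 throughout. Endothelium markers summed to 305 and 324 CPM in KO with IWR1, 445 and 295 CPM in KO and 391 and 422 CPM in control.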
